A study of Mus musculus with 16 samples.

Results

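The IL-12 family cytokine subunits are the genes *Il12a*, *Il12b*, *Il23a*, *Il27* and *Ebi3*, and they were chosen by gene symbol. All 5 were found among the 23356 genes of the deposited table. The mRNA was sequenced from bone marrow-derived dendritic cells (BMDCs), grown from mouse marrow with GM-CSF and IL-4. The cultures came from wild-type C57BL/6 mice and from *Tmem173*-/-, *Irf1*-/- and *Irf3/7*-/- mice on that background, and were left untreated or received c-di-GMP at 25 μg/ml, both for 18 h. There are 16 listed samples, 2 per condition in 8 conditions, and the text of the study gives a higher dose for these libraries. The knockouts are germline deletions, so that every cell of a culture carries them, and BMDCs are cultures that were not sorted for a pure cell type.

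IL-12 family cytokines are secreted pairs of an alpha chain, folded like IL-6, and a beta chain that resembles a soluble cytokine receptor. *Il12a* encodes the alpha chain p35, *Il23a* the alpha chain p19 and *Il27* the alpha chain p28, while *Il12b* encodes the beta chain p40 and *Ebi3* the beta chain EBI3. The chain p40 forms IL-12 with p35 and IL-23 with p19, and EBI3 forms IL-27 with p28 and IL-35 with p35. Dendritic cells use IL-12 to direct T cells to IFN-γ production and IL-23 to maintain TH17 cells, and IL-27 both supports early TH1 responses and restrains TH17 cells. The endoplasmic reticulum protein STING, encoded by *Tmem173*, binds c-di-GMP and activates IRF and NF-κB transcription factors.

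The table gave 1 FPKM (fragments mapped to a transcript, scaled to its length and to the depth of the library) per condition, because the replicates had been combined by the authors, together with the lower and upper bound of an interval. There was therefore no spread between replicates and no p-value. To be called, a gene had to differ by more than 2-fold, to have intervals that kept apart, and to reach 1 FPKM on at least one side of the comparison. Log2 values were computed after adding 0.1 FPKM, and folds were computed from the FPKM as deposited. The range given beside a fold sets the bounds of the intervals against each other. Nothing in the labels says that the 2 samples of a condition came from separate mice.

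*Tmem173* was at 8.97 and 7.49 FPKM in untreated and treated *Tmem173*-/- BMDCs, against at least 77.0 FPKM in each of the other conditions. *Irf1* RNA rose in *Irf1*-/- BMDCs from 25.9 to 115.7 FPKM with c-di-GMP, against 245 FPKM in treated wild-type BMDCs, and *Irf3* was at 20.2 FPKM in treated *Irf3/7*-/- and 15.8 FPKM in treated wild-type BMDCs. *Irf7* reached 4.97 FPKM in treated *Irf3/7*-/- BMDCs, against 687 FPKM in treated wild-type BMDCs. All 7 dendritic cell markers, among them *Itgax* and *Cd74*, were above 1 FPKM in every condition, with *Flt3* lowest at 1.17 to 2.75 FPKM. *H2-Ab1* was called lower in *Irf1*-/- than in wild-type BMDCs, at 278 against 650 FPKM untreated and 331 against 890 FPKM treated. In treated *Tmem173*-/- BMDCs *Itgax* was called higher and *Ccr7* and *Cd86* lower, and *Ccr7* was also lower untreated. *Flt3* was called higher in treated *Irf3/7*-/- BMDCs. T cell markers were also present: the summed level of 6 such genes without and with c-di-GMP was 67.2 and 48.5 FPKM in wild-type, 92.6 and 165.8 FPKM in *Irf3/7*-/-, 5.76 and 9.73 FPKM in *Irf1*-/-, and 1.32 and 1.28 FPKM in *Tmem173*-/- BMDCs. *Cd4* stayed below 1 FPKM in all of them, and 5 of the 6 genes were above it in wild-type and *Irf3/7*-/- BMDCs. The higher sum of treated *Irf1*-/- BMDCs came from *Lck*, which rose from 1.26 to 6.16 FPKM. The other genes of the list were lower with c-di-GMP than without in that genotype, such as *Cd8a* at 1.40 against 1.70 FPKM, and none of them was called.

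In GRCm38 coordinates, *Il12a* lay on chromosome 3 from 68690644 to 68698547, *Il12b* on chromosome 11 from 44400063 to 44414017, and *Ebi3* on chromosome 17 from 55952623 to 55957022, all on the plus strand. *Il23a* lay on chromosome 10 from 128296140 to 128298084 and *Il27* on chromosome 7 from 126589295 to 126594910, both on the minus strand. In the GENCODE M21 annotation the locus of *Ebi3* overlaps the antisense gene *Gm16712*, and no other gene overlaps a subunit locus. The libraries were stranded, but the sources used here do not say if Cuffdiff counted by strand, so reads of *Ebi3* and *Gm16712* may not be told apart. The table lists *Il12a* with more than 1 start site, and its FPKM covers the whole gene.

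The RefSeq promoter table held windows for *Il12a*, *Il12b* and *Ebi3*. The 250 bases before the start are given for these genes, since *Ebi3* differs from *Il12a* and *Il12b* in the knockouts. Letters in capitals mark matches to the motifs that were searched on both strands: the interferon response element (GAAA and GAAA with any 2 bases between them), the NF-κB site, the AP-1 site TGANTCA, the C/EBP site TTGCNNAA and the PU.1 core GAGGAA.
Il12a, chr3:68690394-68690643 (GRCm38.p6, plus strand): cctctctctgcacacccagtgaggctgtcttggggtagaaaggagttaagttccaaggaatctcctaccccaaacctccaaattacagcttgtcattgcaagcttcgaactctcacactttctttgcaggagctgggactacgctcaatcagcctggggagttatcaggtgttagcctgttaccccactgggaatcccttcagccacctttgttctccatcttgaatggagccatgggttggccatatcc
Il12b, chr11:44399813-44400062 (GRCm38.p6, plus strand): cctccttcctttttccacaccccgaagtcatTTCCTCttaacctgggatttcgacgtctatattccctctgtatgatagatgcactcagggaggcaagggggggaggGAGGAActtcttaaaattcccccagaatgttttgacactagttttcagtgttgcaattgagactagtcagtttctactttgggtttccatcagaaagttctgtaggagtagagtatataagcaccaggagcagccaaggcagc
Ebi3, chr17:55952373-55952622 (GRCm38.p6, plus strand): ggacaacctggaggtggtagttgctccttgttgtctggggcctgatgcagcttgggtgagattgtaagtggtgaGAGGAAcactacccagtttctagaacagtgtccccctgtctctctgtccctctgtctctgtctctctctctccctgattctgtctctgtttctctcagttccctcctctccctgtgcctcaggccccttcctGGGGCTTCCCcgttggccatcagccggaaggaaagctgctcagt
The *Il12b* window held the PU.1 core at 2 places, 219 and 143 bases before the start, without overlap. The *Ebi3* window held an NF-κB site 44 bases and a PU.1 core 176 bases before the start. The *Il12a* window held none of the 5 motifs, and neither did the window before its second start site, at 68691174 to 68691423. Among 32851 promoter windows of the same length, 2.98% held the interferon response element, 3.9% the NF-κB site, 6.75% the AP-1 site, 9.56% the C/EBP site and 23.3% the PU.1 core. A match is a run of letters and was not tested as a binding site.

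c-di-GMP raised all 5 subunit genes in wild-type BMDCs, where 10.5% of the 11201 genes tested were called higher. The rises ran from 6.68-fold for *Ebi3* to 38.6-fold for *Il27*. The median log2 change of the 5 genes was 4.08, against 0.0033 over all genes tested.

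*Il12b* rose from 4.59 FPKM (authors' interval, 3.38 to 5.81) to 148 FPKM (114 to 182), which is 32.2-fold (19.6 to 53.8). This was the 60th largest rise of the 11201 genes. *Il27* rose from 0.533 FPKM (0.169 to 0.846) to 20.6 FPKM (13.3 to 25.6), or 38.6-fold (15.7 to 151), the 59th largest rise. No interval of a treated value reached that of the untreated value. *Il23a* rose from 0.367 FPKM (0.146 to 0.585) to 7.81 FPKM (5.74 to 9.86), or 21.3-fold (9.80 to 67.4). *Il12a* rose from 0.37 FPKM (0.134 to 0.604) to 6.57 FPKM (4.65 to 8.49), or 17.8-fold (7.70 to 63.2). The alpha chain genes thus started below 1 FPKM and stayed the scarcer mRNAs after c-di-GMP. *Ebi3* behaved differently in level, at 36.0 FPKM (25.6 to 45.9) in untreated cells and 240 FPKM (168 to 303) in treated cells. It was the most abundant subunit mRNA in wild-type BMDCs in both conditions, and its 6.68-fold rise (3.67 to 11.8) was the 234th largest.

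**Figure D1:**
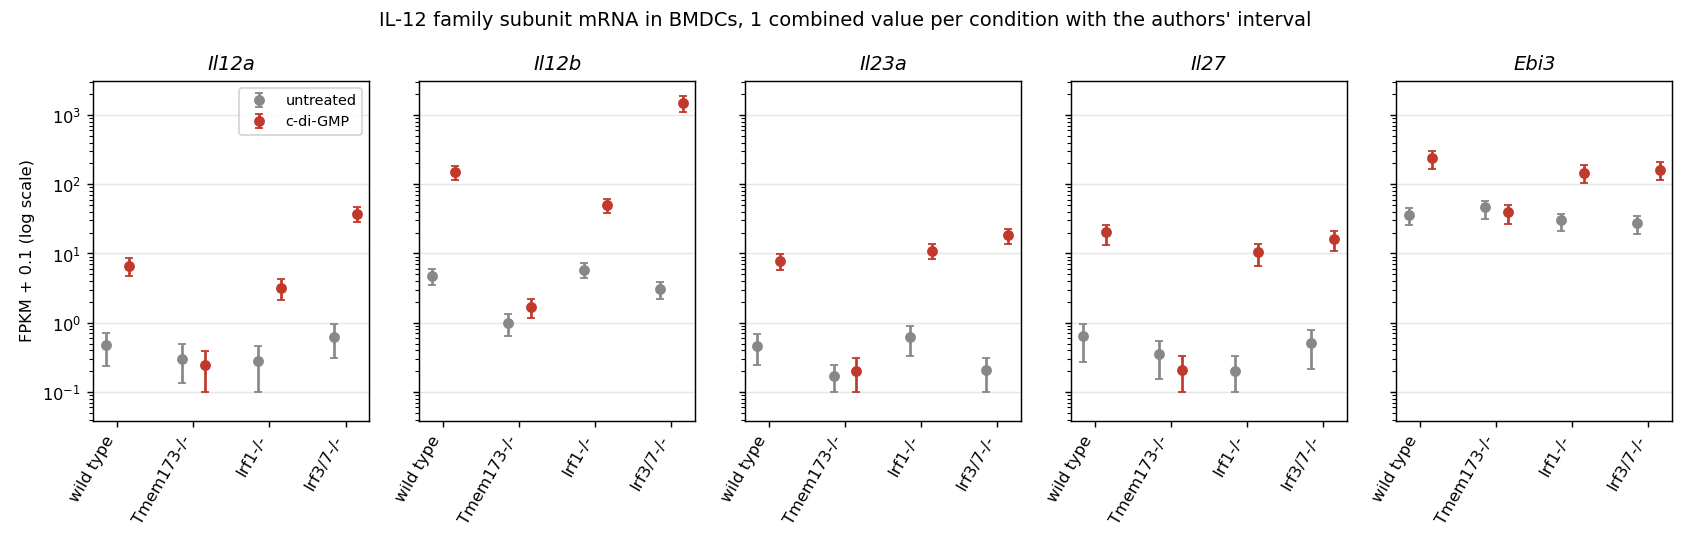
Each panel plots FPKM + 0.1 of a subunit gene on a log axis for untreated (grey) and c-di-GMP-treated (red) BMDCs of 4 genotypes, with bars for the authors' interval around the single combined value. The treated values lie above the untreated values in wild-type, *Irf1*-/- and *Irf3/7*-/- BMDCs, overlap them in *Tmem173*-/- BMDCs, and reach 1474 FPKM for *Il12b* in treated *Irf3/7*-/- BMDCs.

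In *Tmem173*-/- BMDCs no subunit gene was called after c-di-GMP. *Il12b* was at 0.892 FPKM (0.55 to 1.22) without and 1.57 FPKM (1.06 to 2.08) with c-di-GMP, and *Ebi3* at 46.7 FPKM (31.3 to 56.3) and 39.2 FPKM (26.4 to 50.6), and in both genes the intervals overlapped. *Il12a* was at 0.201 and 0.142 FPKM, *Il23a* at 0.0727 and 0.1 FPKM, and *Il27* at 0.25 and 0.11 FPKM, so these 3 genes stayed below 1 FPKM and could not be tested within the genotype. Of 10867 genes tested, 0.0552% were called in this genotype.

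Compared with treated wild-type BMDCs, treated *Tmem173*-/- BMDCs had lower levels of all 5 subunit genes, where 13.5% of 11318 genes were called lower. The log2 differences were -6.62 for *Il27*, -6.47 for *Il12b*, -5.30 for *Il23a*, -4.78 for *Il12a* and -2.61 for *Ebi3*. The median over the 5 genes was -5.30, against 0.018 over all genes tested. *Il12b* was 94.0-fold lower (54.8 to 171.7), the 63rd largest fall in the table, and *Il27* was lower by a fold of 187, at least 59.0 by the interval bounds. *Ebi3* was 6.14-fold lower (3.33 to 11.5). Its interval in treated *Tmem173*-/- BMDCs overlapped those of all untreated genotypes. T cell markers summed to 1.28 FPKM and neutrophil markers to 13534 FPKM in these cultures, against 48.5 and 1752 FPKM in treated wild-type BMDCs, and their part in the lower subunit genes was not tested. All comparisons of treated knockouts with wild-type BMDCs share the same treated wild-type value.

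Without c-di-GMP only *Il12b* and *Ebi3* reached 1 FPKM and could be compared between genotypes. Untreated *Tmem173*-/- BMDCs held 5.15-fold less *Il12b* than wild-type BMDCs (2.77 to 10.6), where 5.95% of 11101 genes were called lower and 11% in either direction. In untreated *Irf1*-/- and *Irf3/7*-/- BMDCs *Il12b* was at 5.73 FPKM (4.26 to 7.19) and 2.95 FPKM (2.10 to 3.79), and neither value was called against the 4.59 FPKM of wild-type BMDCs. In these comparisons 4.78% and 2.04% of the genes tested were called. *Ebi3* lay between 27.1 and 46.7 FPKM in the 4 untreated genotypes, with overlapping intervals. The summed level of 4 neutrophil markers was 18747 FPKM in untreated *Tmem173*-/- and 3887 FPKM in untreated wild-type BMDCs, and its part in the difference of *Il12b* was not tested. Most of that sum was *S100a8*, whose FPKM lay outside its own interval in every condition. In bulk RNA, fewer cells of a type and less RNA per cell cannot be told apart.

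In *Irf1*-/- BMDCs all 5 genes still rose after c-di-GMP, where 9.67% of 11164 genes were called higher. Against treated wild-type BMDCs, however, *Il12a* and *Il12b* were lower, and *Il23a*, *Il27* and *Ebi3* were not called. In this comparison 4.91% of 11079 genes were called lower and 7.56% in either direction. The median log2 difference of the 5 genes was that of *Il27*, close to a halving, against 0.02 over all genes tested.

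*Il12b* was at 49.9 FPKM (38.6 to 61.3) in treated *Irf1*-/- BMDCs, against 148 FPKM (114 to 182) in treated wild-type BMDCs. This is a 2.96-fold lower level (1.86 to 4.71), with a log2 difference of -1.56. *Il12a* was at 3.08 FPKM (2.02 to 4.15), against 6.57 FPKM, or 2.13-fold lower (1.12 to 4.21). Its log2 difference of -1.07 lay close to the 2-fold threshold and became -0.89 when 1 FPKM was added in place of 0.1, which ended the call. *Il23a* was at 10.9 FPKM (8.16 to 13.5), which is 1.39-fold the wild-type level (0.828 to 2.36), and the intervals overlapped. *Il27* was at 10.2 FPKM (6.49 to 13.6), which is 2.01-fold below the wild-type level (0.975 to 3.94) but was not called, since its log2 difference after adding 0.1 FPKM was just under 1 in size and the upper bound reached past the wild-type lower bound of 13.3 FPKM. *Ebi3* was at 147 FPKM (104 to 188), which overlapped the wild-type interval. T cell markers summed to 9.73 FPKM in these cultures, against 48.5 FPKM for treated wild-type BMDCs, and 4 of the 6 were called lower. Of the 5 macrophage markers measured, 3 were lower (*Mertk*, *C1qa* and *Cd14*), with a sum of 54.1 FPKM against 242.6 FPKM, and the 4 NK cell markers summed to 0.657 FPKM against 4.81 FPKM. The part of these cells in the lower *Il12a* and *Il12b* was not tested.

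In treated *Irf3/7*-/- BMDCs, *Il12b*, *Il12a* and *Il23a* were higher than in treated wild-type BMDCs, and *Il27* and *Ebi3* were not called. Here 4.61% of 11209 genes were called higher and 7.3% in either direction. The median log2 difference of the 5 genes was 1.20, against -0.02 over all genes tested. *Il12b* reached 1474 FPKM (1099 to 1849), which is 9.96-fold the wild-type level (6.04 to 16.2) and the 28th largest difference upward in the table. *Il12a* reached 37.6 FPKM (28.1 to 47.0), or 5.72-fold the wild-type level (3.31 to 10.1), the 65th largest. *Il23a* reached 18.1 FPKM (13.7 to 22.4), or 2.32-fold (1.39 to 3.91). These 3 genes, which encode the chains of IL-12 and IL-23, were at their highest level in this condition, with no overlap with any other condition. For *Il23a* the gap was narrow, as its lower bound of 13.7 FPKM lay just above the upper bound of 13.5 FPKM in treated *Irf1*-/- BMDCs. How many of all genes show the same order was not counted.

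The genes of the IL-27 chains had overlapping intervals in these cultures. *Il27* was at 16.3 FPKM (10.7 to 21.2) in treated *Irf3/7*-/- and 20.6 FPKM in treated wild-type BMDCs, a ratio of 0.792 (0.417 to 1.59). *Ebi3* was at 162 FPKM (115 to 208) against 240 FPKM, a ratio of 0.673 (0.382 to 1.23). For both genes the order of the treated levels was wild type, *Irf3/7*-/- and *Irf1*-/-, and neighbours in that order overlapped. Without c-di-GMP neither *Il12b* nor *Ebi3* was called in *Irf3/7*-/- against wild-type BMDCs, where 2.04% of 11004 genes were called. The other subunit genes were below 1 FPKM in both and could not be tested. T cell markers summed to 165.8 FPKM and markers of basophils and mast cells to 142.6 FPKM in treated *Irf3/7*-/- BMDCs, against 48.5 and 43.9 FPKM in treated wild-type BMDCs. NK cell markers summed to 21.6 FPKM against 4.81 FPKM, and macrophage markers to 121.7 FPKM against 242.6 FPKM. Without treatment the T cell sum was 92.6 FPKM and the basophil and mast cell sum 91.5 FPKM in *Irf3/7*-/- BMDCs. In untreated wild-type BMDCs these sums were 67.2 and 39.8 FPKM. NK cell and macrophage markers summed to 21.6 and 43.6 FPKM in untreated *Irf3/7*-/- BMDCs, against 11.6 and 57.6 FPKM in untreated wild-type BMDCs. The part of these cells in the higher *Il12b*, *Il12a* and *Il23a* was not tested.

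**Figure D2:**
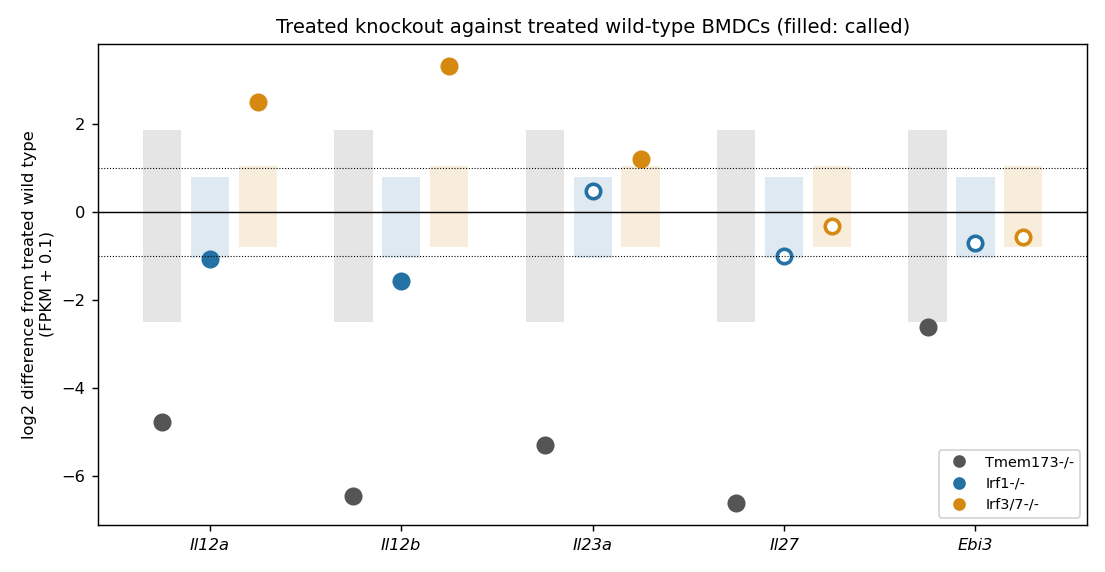
Each point is the log2 difference (FPKM + 0.1) of a subunit gene between a treated knockout and treated wild-type BMDCs, filled where called, and the shaded box spans the 5th to 95th percentile of all genes tested in that comparison. *Il12b* and *Il12a* lie below 0 in *Irf1*-/- and above 2 in *Irf3/7*-/- BMDCs, and all 5 genes lie below -2 in *Tmem173*-/- BMDCs.

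The treated *Irf1*-/- and *Irf3/7*-/- BMDCs were also compared directly, which does not use the wild-type value. *Il12b* was 29.5-fold (17.9 to 47.9) and *Il12a* 12.2-fold (6.78 to 23.3) lower in *Irf1*-/- BMDCs, where 6.62% of 11235 genes were called lower and 9.84% in either direction. The intervals of *Il23a* were separate as well, at 10.9 and 18.1 FPKM, but its 1.67-fold difference (1.01 to 2.75) did not reach 2-fold. *Il27* and *Ebi3* overlapped between these knockouts, with log2 differences of -0.66 and -0.14.

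The induction within a genotype was expressed as a share of the wild-type log2 change. In *Irf3/7*-/- BMDCs the share was 179% for *Il12b* (164% to 195% by the interval bounds of the knockout), 158% for *Il23a* (135% to 192%) and 155% for *Il12a* (128% to 189%). *Il12b* rose in this genotype from 2.95 to 1474 FPKM, a 499-fold change and the 8th largest rise of 11283 genes, of which 10.2% were called higher. All 5 genes were called higher in this genotype. The shares of *Il27* and *Ebi3* were 99.4% and 94.1%. For the 1175 genes induced in wild-type BMDCs the median share was 84.2%, with quartiles of 59.8% and 106%. In *Irf1*-/- BMDCs the share was 62.3% for *Il12b* (48.4% to 76.6%), below the lower quartile of 63.8% for all induced genes. The median share of all induced genes was 93.4% there. For *Il12a* the share was 91.3% (57.8% to 141%), although its treated level was called lower than in wild-type BMDCs. Its untreated level was 0.182 FPKM in *Irf1*-/- and 0.37 FPKM in wild-type BMDCs, both too low to be tested. The shares of *Ebi3*, *Il23a* and *Il27* were 83.9%, 102% and 113%. *Il27* rose 101-fold in *Irf1*-/- BMDCs, at least 28.8-fold by the bounds, from an untreated level of 0.101 FPKM whose interval reached 0. In *Tmem173*-/- BMDCs the shares ran from -14.6% for *Il27* to 15.2% for *Il12b*, and each range included 0.

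**Figure D3:**
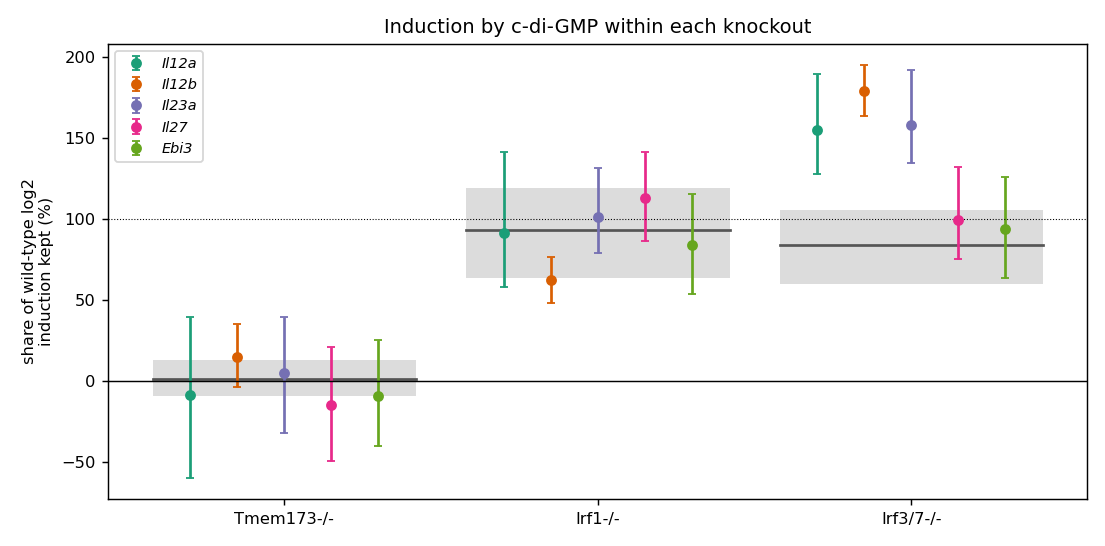
Points give the log2 change with c-di-GMP within a knockout as a percentage of the wild-type log2 change, with bars from the interval bounds of the knockout values, and the grey box and line give the quartiles and median over the 1175 genes induced in wild-type BMDCs. In *Irf3/7*-/- BMDCs *Il12a*, *Il12b* and *Il23a* lie above 150%, and *Il27* and *Ebi3* lie near 100%.

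Since FPKM is scaled to transcript length, the levels of paired chains were set side by side. In treated wild-type BMDCs *Il12b* was 22.5-fold (13.4 to 39.1) above *Il12a* and 18.95-fold (11.6 to 31.7) above *Il23a*. The alpha chains of IL-12 and IL-23 were close to each other there, with *Il23a* at 1.19 times *Il12a* (0.675 to 2.12). In the knockouts the ratio lay on opposite sides of the wild-type value. In treated *Irf1*-/- BMDCs *Il23a* was 3.53 times *Il12a* (1.97 to 6.71), and in treated *Irf3/7*-/- BMDCs it was 0.482 times *Il12a* (0.291 to 0.798). The ranges of treated *Irf1*-/- and *Irf3/7*-/- BMDCs were separate, and each overlapped that of wild-type BMDCs. *Il12b* was 4.60-fold (2.85 to 7.50) above *Il23a* in treated *Irf1*-/- BMDCs and 81.5-fold (49.0 to 135) in treated *Irf3/7*-/- BMDCs.

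The excess of *Ebi3* over *Il27* was 67.5-fold (30.3 to 271) in untreated and 11.7-fold (6.59 to 22.7) in treated wild-type BMDCs, and these ranges were separate. It was 14.4-fold (7.65 to 29.0) in treated *Irf1*-/- and 9.94-fold (5.45 to 19.5) in treated *Irf3/7*-/- BMDCs, and these ranges overlapped with that of treated wild-type BMDCs. In treated *Tmem173*-/- BMDCs, *Ebi3* stood 356-fold above *Il27*, at least 117-fold by the bounds. *Ebi3* exceeded *Il12a*, the other possible partner of EBI3, by 36.6-fold (19.8 to 65.1) in treated wild-type BMDCs and by 4.31-fold (2.46 to 7.38) in treated *Irf3/7*-/- BMDCs. These are ratios of mRNA, and the amounts of assembled cytokine were not measured by RNA-seq.

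**Figure D4:**
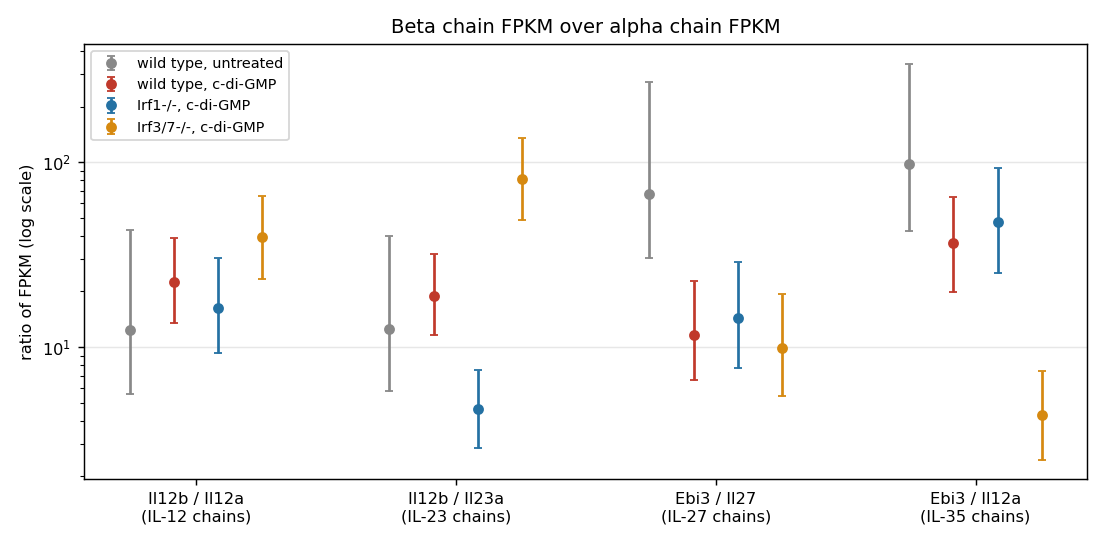
Points give the FPKM of the beta chain gene divided by that of its alpha chain partner on a log axis, in untreated wild-type and in treated wild-type, *Irf1*-/- and *Irf3/7*-/- BMDCs, with bars from the authors' interval bounds. The ratio of *Il12b* to *Il23a* spans 4.60 in *Irf1*-/- to 81.5 in *Irf3/7*-/- BMDCs, and that of *Ebi3* to *Il27* lies between 9.94 and 14.4 in the 3 treated genotypes.

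The bounds of the intervals of 3 genes moved in fixed steps. All 13 distinct nonzero bounds of *Il27* were whole multiples of 0.0564 FPKM, all 11 distinct ones of *Il23a* of 0.0293 FPKM, and the 14 bounds of *Il12b* precise enough to be read of 0.0204 FPKM, within 0.05 of a step plus rounding. The sources used here do not say what a step stands for. In these steps *Il27* was at 9.45 in untreated and 365 in treated wild-type BMDCs, *Il23a* at 12.6 and 267, and *Il12b* at 225 and 7259. The untreated values of *Il23a* and *Il27* thus rest on few steps, between 1.80 and 17.8 over the 4 genotypes, and none reached 1 FPKM. *Il23a* in untreated *Irf1*-/- BMDCs, at 0.52 FPKM (0.234 to 0.790), overlapped untreated wild-type BMDCs (0.146 to 0.585). Its interval lay apart from those of untreated *Tmem173*-/- (0 to 0.146) and *Irf3/7*-/- BMDCs (0 to 0.205). These pairs were not among the comparisons made, and all these values are below the 1 FPKM needed for a call.

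Across the 8 conditions, log2 levels of the subunits varied together to different degrees. The highest Pearson correlation between members was that of *Il12a* and *Il12b* (r = 0.975), followed by *Il27* and *Ebi3* (r = 0.955), and the lowest that of *Il12b* and *Ebi3* (r = 0.844). Many genes outside the family had a higher r. Ranked by r, *Il12b* was 22nd for *Il12a* and *Il12a* 12th for *Il12b*, while *Ebi3* was 343rd for *Il27* and *Il27* 159th for *Ebi3*. The points are 8 conditions that fall mainly into responding and non-responding cultures, so these values are descriptions. Among 7382 genes with at least 10 FPKM in some condition, the 3 genes most like *Il12b* were *Arf4*, *Furin* and *Lrp8* (r from 0.985 to 0.994). The likeness is one of pattern and not of size. In wild-type BMDCs *Arf4* was at 98.8 FPKM without and 148 FPKM with c-di-GMP, against 4.59 and 148 FPKM for *Il12b*. *Furin* encodes a proprotein convertase, and was at 80.1 FPKM in treated wild-type, 69.9 FPKM in treated *Irf1*-/- and 157 FPKM in treated *Irf3/7*-/- BMDCs. Most like *Il12a* were *Sqstm1*, *Htra4* and *Bcl2l1* (r from 0.987 to 0.993), and *Sqstm1*, which encodes the autophagy receptor p62, was at 459, 344 and 743 FPKM in the same order. Most like *Il23a* were *Slc25a51*, *Ankrd33b* and *Nfkbia* (r from 0.989 to 0.992), of which *Nfkbia* encodes the NF-κB inhibitor IκBα. Most like *Il27* were *Slc9a3r1*, *Inpp5b* and *Trim12a* (r from 0.994 to 0.995), and most like *Ebi3* were *Laptm4b*, *Trim30b* and *Gucd1* (r from 0.992 to 0.997).

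Of the 5 receptor genes of the family, 3 rose when wild-type BMDCs received c-di-GMP: *Il12rb1*, the receptor chain shared by IL-12 and IL-23, *Il12rb2*, the second chain of the IL-12 receptor, and *Il23r*, that of the IL-23 receptor. *Il27ra* and *Il6st*, which encode the IL-27 receptor chains, were not called. The median log2 change of the list was 1.33, and 10.5% of all genes rose in this comparison. *Il23r* rose from 0.624 to 5.66 FPKM and *Il12rb2* from 16.3 to 56.3 FPKM. Treated *Tmem173*-/- BMDCs had lower levels of these 3 receptor genes than treated wild-type BMDCs, where 13.5% of all genes were lower. Only *Il12rb1* was called in treated *Irf1*-/- BMDCs, where 7.56% of all genes were called, at 0.144 FPKM against 24.3 FPKM in wild-type BMDCs, while *Il12rb2* was at 56.1 FPKM. The difference was also called in untreated BMDCs, with *Il12rb1* at 0.0886 FPKM in *Irf1*-/- and 9.62 FPKM in wild-type BMDCs, and it was at 0.212 FPKM in *Tmem173*-/- and 9.43 FPKM in *Irf3/7*-/- BMDCs. The untreated T cell marker sums were 5.76 FPKM in *Irf1*-/-, 67.2 FPKM in wild-type, 1.32 FPKM in *Tmem173*-/- and 92.6 FPKM in *Irf3/7*-/- BMDCs, and their part in the level of *Il12rb1* was not tested. In treated *Irf3/7*-/- BMDCs *Il27ra* was called higher, at 6.03 FPKM against 2.86 FPKM, a log2 difference of 1.05 that was no longer called when 1 FPKM was added.

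Of 5 kinase and STAT genes that act below these receptors, *Stat4* was the one called higher by treatment of wild-type BMDCs, from 23.3 to 55.6 FPKM, beside 10.5% of all genes. In treated *Irf1*-/- and *Irf3/7*-/- BMDCs none of the 5 was called against wild-type BMDCs, where 7.56% and 7.3% of all genes were called. In treated *Tmem173*-/- BMDCs *Tyk2*, *Stat3* and *Stat4* were lower, beside 13.5% of all genes. *Stat4* was at 36.2 FPKM in treated *Irf1*-/- and 75.2 FPKM in treated *Irf3/7*-/- BMDCs. It was lower in the former when they were compared directly, where 6.62% of all genes were lower. STAT4 conveys the IL-12 signal and is also expressed by T cells.

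Of the 12 transcription factor genes in the table that are known to act at promoters of the family, *Irf7*, *Irf8* and *Cebpb* rose in wild-type BMDCs, beside 10.5% of all genes. The NF-κB genes *Rel*, *Rela* and *Nfkb1* were not called there. Nor were they called in treated *Irf1*-/- or *Irf3/7*-/- against treated wild-type BMDCs, where 7.56% and 7.3% of all genes were called. *Rel* was at 49.2, 49.0 and 44.4 FPKM in treated wild-type, *Irf1*-/- and *Irf3/7*-/- BMDCs. These are RNA levels, and the part of NF-κB in the levels of *Il12b* was not tested. *Cebpb* was lower in treated *Irf1*-/- BMDCs, at 73.5 FPKM against 240 FPKM, in addition to *Irf1* itself. The deposited FPKM of *Cebpb* lay above its own interval in every condition (115 to 207 in treated wild-type BMDCs), so its values are uncertain. In treated *Irf3/7*-/- BMDCs *Irf7* was lower and *Maf* was higher, the latter at 3.94 FPKM against 1.82 FPKM. *Maf*, whose product is known to repress *Il12b* and to induce *Il10*, was no longer called when 1 FPKM was added or a minimum of 5 FPKM was set. In treated *Tmem173*-/- BMDCs 9 of the 12 genes were lower, where 13.5% of all genes were, and the median log2 difference of the list was -1.33.

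Of 8 other cytokine genes that shape T cell responses, 7 were tested in wild-type BMDCs and 6 rose after c-di-GMP: *Il6*, *Il1b*, *Il15*, *Il18*, *Tnf* and *Ifnb1*. The median log2 change of those tested was 1.99, and 10.5% of all genes rose. In treated *Irf3/7*-/- BMDCs, where 7.3% of all genes were called, *Tnf* and *Ifnb1* were higher than in wild-type BMDCs, and *Il1b* and *Il18* were lower. *Il18*, at 2.25 FPKM against 4.92 FPKM, was no longer called when 1 FPKM was added or a minimum of 5 FPKM was set. *Tnf* was at 355 FPKM against 91.1 FPKM, and *Ifnb1* at 22.6 FPKM against 2.93 FPKM. *Il6* was at 580 FPKM against 339 FPKM and was not called. In treated *Irf1*-/- BMDCs *Il1b* was the only one called of the 7 tested, and was lower, where 7.56% of all genes were called. None of the 7 chaperone genes of the endoplasmic reticulum, such as *Hsp90b1* and *P4hb*, was called between treated genotypes. In these comparisons between 7.3% and 26.3% of all genes were called.

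**Figure D5:**
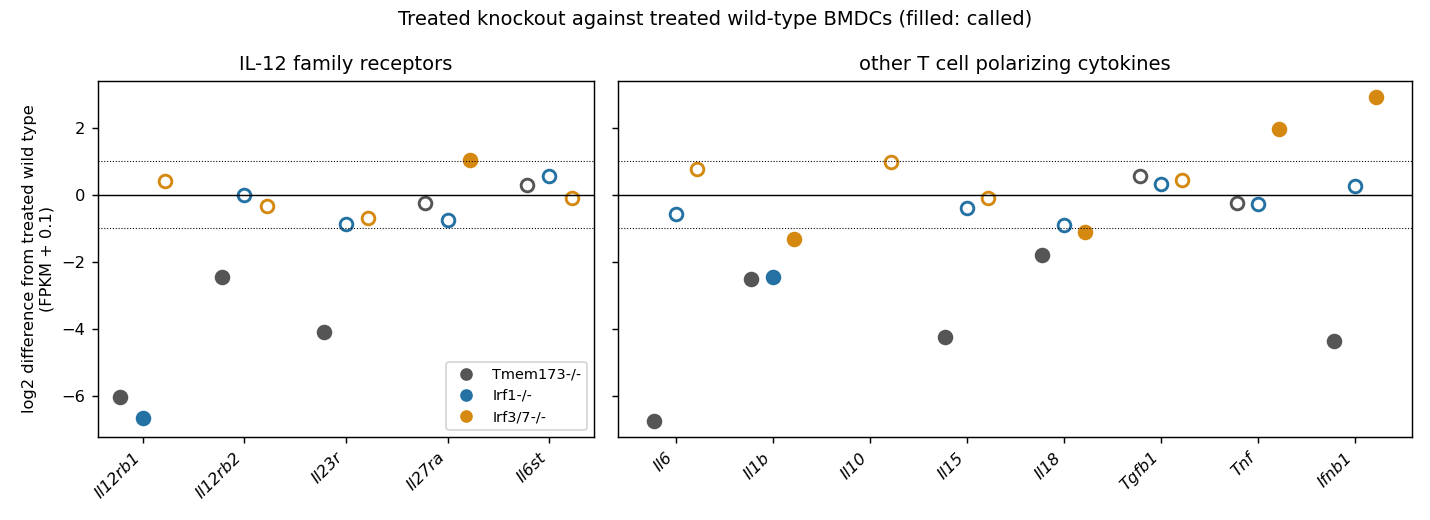
Points give the log2 difference (FPKM + 0.1) between a treated knockout and treated wild-type BMDCs for 5 receptor genes (left) and 8 other cytokine genes (right), filled where called, and genes under 1 FPKM in both conditions are left out. *Il12rb1* lies at -6.65 in *Irf1*-/- BMDCs, and *Tnf* and *Ifnb1* are the cytokine genes called higher in *Irf3/7*-/- BMDCs.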

How the data were processed

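RNA-seq of BMDCs was analysed from 1 table of gene expression, with values for 8 conditions and 2 listed samples per condition. The authors made the FPKM values with Cuffdiff and combined the replicates. The submitters' processing notes name Cuffdiff 1.06 and the build mm9, and the paper's methods name another Cuffdiff version and the DNAnexus pipeline. However, 21454 of 21681 genes had loci overlapping their namesakes in GENCODE M21, which is on GRCm38, so GRCm38 positions are given. Aligner and gene annotation: not given in the sources used here. A set of 4 more columns, from a knockout that no listed sample belongs to, was not used. The treated *Tmem173*-/- column carries another abbreviation for the agent, and was taken as treated because it is the one column of that genotype that names an agent.

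Log2(FPKM + 0.1) was compared in 11 comparisons over all genes with status OK. Depth cannot be read from FPKM, and the authors' interval was the only measure of precision at hand. Its median half-width, over 4710 genes that never fell below 10 FPKM, lay between 25.2% and 25.7% of the FPKM. The interval cannot be checked against replicates. The members and gene lists were chosen with earlier results of these data known. Named genes were the 5 members, genes of the lists, the targeted genes, and the 3 genes most correlated with each member over the conditions. *Spi1* was not found among the symbols, nor were *Adgre1* and *Ly6g* among the markers. One gene of the kinase and STAT list is not reported here. Promoter sequences came from RefSeq (GRCm38.p6), which matched 3 of the 5 members. Alternatives were other pseudocounts, minimum levels and fold thresholds, median centring, and the fold alone. Python 3.11.15, numpy 2.4.6, pandas 2.3.3 and matplotlib 3.10.9 were used.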

Additional observations from a re-analysis of the deposited data

Results flagged for a closer look

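*Il12a* and *Il12b* were called in opposite directions in the transcription factor knockouts: each was lower in treated *Irf1*-/- and higher in treated *Irf3/7*-/- than in treated wild-type BMDCs. The log2 difference between treated *Irf1*-/- and treated *Irf3/7*-/- BMDCs was -3.57 for *Il12a* and -4.88 for *Il12b*. The lower *Il12a* in treated *Irf1*-/- BMDCs was a narrow call, at 2.13-fold (1.12 to 4.21), and was lost with a pseudocount of 1 FPKM. With 1 combined value per condition none of these differences was tested against replicates.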

How the results depend on the processing

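The number of subunit genes called kept within 1.5 times of the reported number in 85 of 88 combinations of comparison and alternative. In treated *Irf1*-/- against treated wild-type BMDCs it moved from 2 to 1 with a pseudocount of 1 FPKM and to 0 with a fold threshold of 4. In untreated *Tmem173*-/- against untreated wild-type BMDCs it moved from 1 to 0 with a minimum of 5 FPKM. Of 344 recomputed differences of single subunit genes, 337 kept their call, 6 lost it and 1 gained it, and no called difference changed sign. The shares of induction kept stayed in their ranges in each of 30 recomputations. Of 64 subunit ratios, 18 left their ranges, each of these with a pseudocount of 1 FPKM and in an untreated or *Tmem173*-/- condition. The genes most like *Il12a* were all replaced with that pseudocount. The counts for the other gene lists were recomputed as an alternative chosen after seeing the data, and 16 of 160 moved by more than 1.5 times. No paired analysis was possible because the deposited values are combined over replicates, and for the same reason no replicate could be left out. Over all genes, a fold threshold of 4 left 592 of 2291 calls in treated against untreated wild-type BMDCs, 232 of 838 for treated *Irf1*-/- and 207 of 818 for treated *Irf3/7*-/- against wild-type BMDCs. A minimum of 5 FPKM left 538 and 460 calls in the latter comparisons, and a pseudocount of 1 FPKM left 536 in the last. In *Tmem173*-/- BMDCs the 6 genes called after c-di-GMP became 0 to 83 under the alternatives. Low untreated levels of the alpha chain genes limit what can be compared without c-di-GMP.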
